A study of Rattus norvegicus with 14 samples.

Results

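This section describes 9 genes that carry glucose into the cell and through the early, regulated steps of its breakdown, in the left ventricle of diabetic and control rats. They were chosen by name: the glucose transporters Slc2a4, Slc2a1 and Slc2a3, the hexokinases Hk1 and Hk2, and the enzymes Pfkfb1, Pfkfb2, Pfkfb3 and Pfkfb4. Of 14217 genes named on the array these are 9, and of its 31099 probe sets, groups of short DNA probes that each read 1 transcript region, they hold 21. Of these 21, 18 were among the 31042 probe sets tested, and 3 are quality control probe sets for Hk1 that Affymetrix placed on the array.

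Every animal was a male Wistar rat anaesthetised with halothane and injected into the tail vein. Controls received saline. Diabetic animals received streptozotocin, a toxin of the insulin-making beta cells, at 60 mg/kg, so the model is one of lost insulin. After 16 weeks RNA of 7 control and 7 diabetic left ventricles was read on Affymetrix Rat Genome 230 2.0 arrays, 1 animal to an array. The description field of the diabetic samples names saline, but their titles, source and protocol do not, and these were followed. RNA came from either of 2 kits, and which animal had which is not stated. Levels below are log2 values of a signal scaled within each array, plus an offset of 50. They can be compared between animals for 1 probe set, but not between probe sets. A level near 5.64, the log2 of the offset, holds almost no signal, and fold changes of dim probe sets are understated. Detection calls were not used here, and precision is set by how many arrays there are.

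Glucose enters a heart muscle cell through facilitative transporters. Slc2a4 encodes GLUT4, which insulin and contraction bring from internal vesicles to the surface; Slc2a1 encodes GLUT1, which carries basal uptake, and Slc2a3 encodes GLUT3, a high-affinity transporter best known from neurons and blood cells. Hexokinases trap the sugar as glucose 6-phosphate, with Hk1 the widely expressed form and Hk2 the main insulin-regulated form of muscle and heart. The Pfkfb enzymes make and degrade fructose 2,6-bisphosphate, the strongest activator of phosphofructokinase, and Pfkfb2 is the isoform typical of heart.

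The promoters of the genes that fell are shown first, where a promoter was available. RefSeq promoters of the rat assembly GRCr8 matched 7 of the 9 genes, all but Slc2a4 and Slc2a3. For Slc2a1, Hk2 and Pfkfb2 the 250 bases before the annotated start are printed, in the direction of transcription. They lie at chr5:138002272-138002521 on the plus strand, chr4:116841276-116841525 on the minus strand and chr13:44726972-44727221 on the minus strand. Capitals mark matches to any motif searched.
Slc2a1: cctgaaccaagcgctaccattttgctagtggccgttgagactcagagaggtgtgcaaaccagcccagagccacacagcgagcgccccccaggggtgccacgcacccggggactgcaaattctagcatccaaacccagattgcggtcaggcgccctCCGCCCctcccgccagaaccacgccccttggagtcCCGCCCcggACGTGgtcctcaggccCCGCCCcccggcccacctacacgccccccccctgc
Hk2: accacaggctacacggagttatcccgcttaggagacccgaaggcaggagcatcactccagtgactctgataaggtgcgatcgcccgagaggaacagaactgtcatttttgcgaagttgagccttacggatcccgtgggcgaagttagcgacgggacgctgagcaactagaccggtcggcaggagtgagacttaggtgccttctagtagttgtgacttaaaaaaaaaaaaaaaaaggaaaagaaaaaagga
Pfkfb2: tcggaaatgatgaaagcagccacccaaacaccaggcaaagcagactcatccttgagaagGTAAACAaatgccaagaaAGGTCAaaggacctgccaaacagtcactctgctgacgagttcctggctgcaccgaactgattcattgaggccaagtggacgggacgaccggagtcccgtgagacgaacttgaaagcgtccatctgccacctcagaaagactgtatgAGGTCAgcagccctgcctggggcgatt

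The motifs, searched on both strands, were TATAAA (in 12.9% of 33469 promoters of this length), CCAAT (34.0%), GGGCGG (the GC box, 30.5%), CACGTG (an E-box, 5.59%), ACGTG (core of the hypoxia response element, 16.6%, also counted where it lies within the E-box), GTAAACA (forkhead site, 3.21%) and AGGTCA (nuclear receptor site, 14.1%). The Slc2a1 promoter was GC-rich (68.4% G or C) and held 3 GC boxes and 1 ACGTG. Pfkfb2 (53.2% G or C) held GTAAACA at bases -191 to -185 from the start and AGGTCA at 2 places, and Hk2 (49.6%) held none of these letters. Promoters of uncalled genes held several of the same motifs: GC boxes stood in those of Hk1, Pfkfb3 and Pfkfb4, ACGTG in those of Hk1 and Pfkfb3, and 2 copies of AGGTCA in that of Pfkfb4. Hk1 had 2 promoters. All its matches lay in the one at chr20:30842073-30842322, and the one at chr20:30874815-30875064 held none. The Pfkfb3 promoter also held the E-box, at -42 to -37. These matches describe the letters only, and whether the ventricle uses these starts was not tested.

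In the diabetic ventricle 4 of the 9 genes fell: Slc2a4, Hk2, Slc2a1 and Pfkfb2. None rose at the threshold, a limma p-value adjusted over all 31042 probe sets below 0.05. Counted by probe set, 5 of 18 fell and 0 rose, while over the whole array 0.522% of probe sets fell and 0.619% rose. The genes were chosen with earlier results of these data known, so these counts do not test them as a set. At an unadjusted limma p below 0.05, which 9.61% of all probe sets passed, 6 of the 18 were lower, with a further probe set of Pfkfb2, and 2 were higher, 1 each of Slc2a3 and Pfkfb3. The same 5 probe sets had every diabetic animal below every control, as had 0.564% of all probe sets; none had every diabetic animal above every control, as had 0.635%. The median change over the 9 genes was -0.41 on the log2 scale, against -0.00 over all probe sets. RNA of whole tissue cannot tell fewer cells of a type from less RNA per cell.

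**Figure D1:**
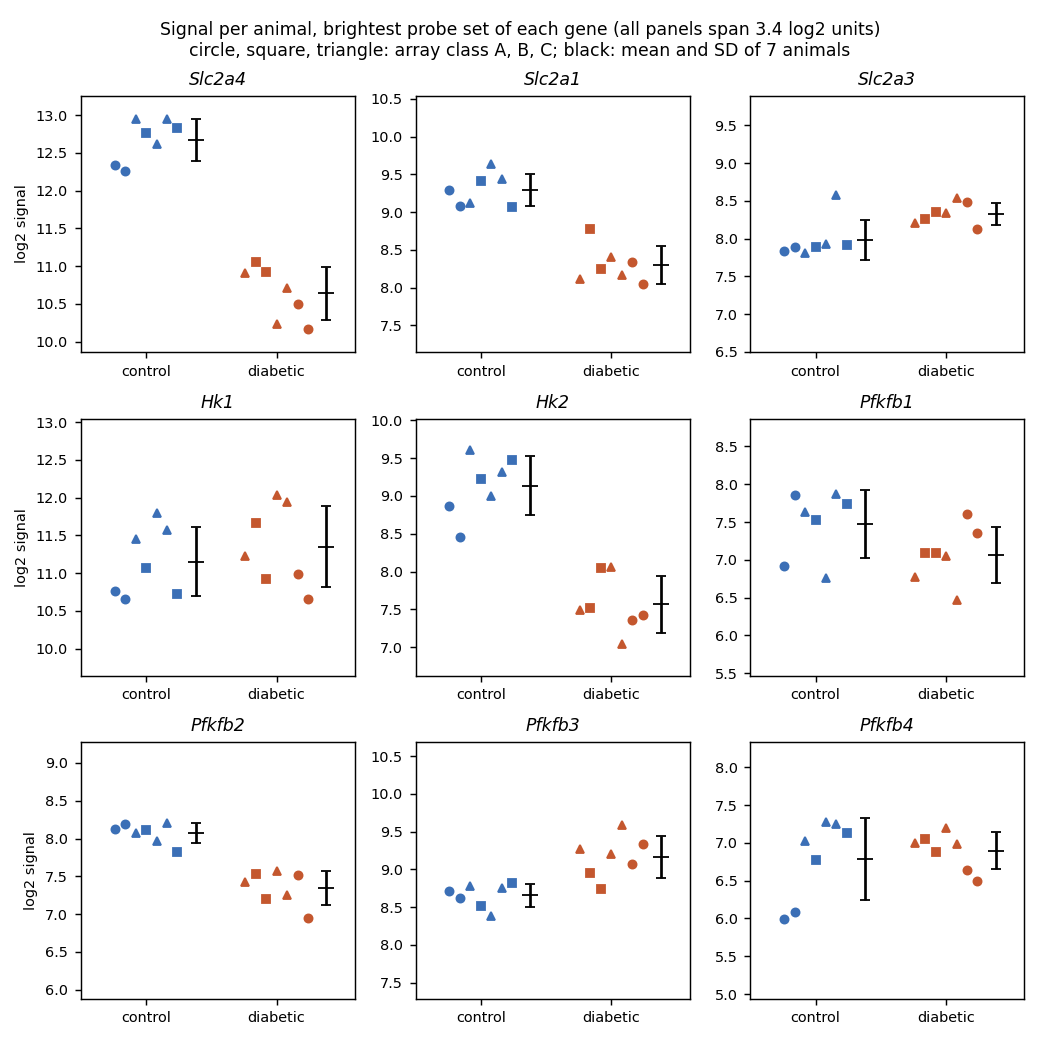
Each panel plots the log2 signal of 1 gene (y axis, brightest probe set) for the 7 control (blue) and 7 diabetic (orange) animals, with the mean and SD in black and marker shape for the array class defined in the text. Slc2a4, Slc2a1, Hk2 and Pfkfb2 have no overlap between the groups; Pfkfb3 overlaps through 1 diabetic animal and Slc2a3 through 1 control.

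Slc2a4 fell the most of the 9 on this log2 scale, where the offset shrinks the fall of the dimmer Hk2 more. Its brighter probe set, 1367989_at, had a lowest, median and highest log2 level of 12.26, 12.76 and 12.95 in control and of 10.17, 10.70 and 11.06 in diabetic animals. Even the highest diabetic heart lay more than 1 log2 unit below the lowest control. The mean was 12.67 ± 0.28 in control and 10.64 ± 0.35 in diabetic (SD, n = 7 each), a fall of 4.08-fold (95% interval 3.19 to 5.23, limma adjusted p = 6.49e-06). Before the log and the offset, the median scaled signal was 6902 in control and 1613 in diabetic, with an array mean set to 500. The probe set stands at the 95.2th percentile of mean signal on these arrays, and its log2 change of -2.03 was -2.05 with an offset of 16 and -1.93 with one of 200.

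A second Slc2a4 probe set, 1388958_a_at, read 9.93, 10.43 and 11.05 (lowest, median, highest) in control and 8.52, 8.82 and 9.21 in diabetic. Again the groups did not overlap. The difference was 3.18-fold (2.47 to 4.09, limma adjusted p = 5.44e-05), so both probe sets of the gene gave a call in 1 direction.

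Slc2a1, the basal transporter, also fell. Probe set 1370848_at read 9.07, 9.30 and 9.64 in control and 8.05, 8.25 and 8.78 in diabetic. All 7 diabetic animals were below all controls, diabetic replicate 2 coming closest. Means were 9.29 ± 0.22 and 8.30 ± 0.25 (SD, n = 7 each), a 1.99-fold fall (1.63 to 2.43, limma adjusted p = 0.000681).

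Slc2a3 did not pass the test. Probe set 1372326_at read 7.81, 7.89 and 8.58 in control and 8.13, 8.34 and 8.54 in diabetic. The groups overlapped only through control replicate 6, the highest of all 14 at 8.58, while the other 6 controls reached at most 7.93. The mean difference was 0.35 (95% interval 0.08 to 0.63, limma adjusted p = 0.326, exact permutation p = 0.0152), and without control replicate 6 it was 0.46 with a limma adjusted p of 0.0451, so that 1 animal decides the call. The dimmer probe set 1387707_at gave 6.88 ± 0.43 and 6.94 ± 0.62 (SD, n = 7 each, limma adjusted p = 0.976), a difference between -0.50 and 0.61.

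The transporters thus changed by unequal amounts. This was examined within each array, as the log2 difference between 2 genes, which removes any factor common to the array. Only a change of that difference between groups has meaning, since the probes of different genes differ in brightness. Slc2a4 minus Slc2a1 went from 3.38 ± 0.34 to 2.34 ± 0.35 (SD, n = 7 each), a shift of -1.04 (exact two-sided permutation p = 0.000971 adjusted over 5 gene pairs). This is a steeper fall of Slc2a4, by 2.05-fold, and no diabetic value reached a control value. Slc2a1 minus Slc2a3 shifted by -1.34, from 1.31 ± 0.28 to -0.03 ± 0.28 (adjusted exact p = 0.000971). For these pairs the unadjusted p was 0.000583, the smallest that the 3432 assignments of 7 and 7 animals can give.

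Of the hexokinases, Hk2 fell and Hk1 was not called. For Hk2, probe set 1369006_at read 8.46, 9.22 and 9.61 in control and 7.03, 7.49 and 8.07 in diabetic. No diabetic animal reached the lowest control. The means, 9.14 ± 0.39 and 7.56 ± 0.37 (SD, n = 7 each), differed by 2.98-fold (2.23 to 3.97, limma adjusted p = 0.000318). The median scaled signal of 551 in control and 122 in diabetic lies near enough to the offset for it to matter: the log2 change was -1.78 with an offset of 16 and -1.07 with one of 200, called in both.

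For Hk1, probe set 1386929_at read 10.66, 11.07 and 11.80 in control and 10.66, 11.23 and 12.03 in diabetic. The ranges nearly coincide, and both groups spread over more than 1 log2 unit. The difference was 0.20 (95% interval -0.32 to 0.72, limma adjusted p = 0.881), an interval that runs from 0.800-fold to 1.65-fold. The dim probe set 1398725_at gave 6.75 ± 0.82 and 6.46 ± 0.59 (SD, n = 7 each, limma adjusted p = 0.871).

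Hk1 is also the transcript that Affymetrix uses on rat arrays to judge RNA integrity, with control probe sets toward its 3', middle and 5' parts. These were outside the limma test. The 3' set read 8.78 ± 0.49 in control and 8.92 ± 0.52 in diabetic (SD, n = 7 each, exact permutation p = 0.586). The middle set read 8.57 ± 0.58 and 8.42 ± 0.43 (exact permutation p = 0.584), and the 5' set 7.19 ± 0.44 and 7.53 ± 0.34 (exact permutation p = 0.128). All 3 therefore overlapped between groups, like the tested probe set. Their 3' over 5' log2 ratio was 2.00 ± 0.29 in control and 1.69 ± 0.40 in diabetic (exact permutation p = 0.128), and that of beta-actin 1.03 ± 0.40 and 1.09 ± 0.39 (exact permutation p = 0.818).

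Within arrays, Hk2 minus Hk1 went from -2.01 ± 0.47 in control to -3.78 ± 0.66 in diabetic (SD, n = 7 each), a shift of -1.77 or 3.42-fold (exact permutation p = 0.000971 adjusted over 5 pairs). The 2 hexokinases therefore changed unequally, and every diabetic value was below every control value.

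**Figure D2:**
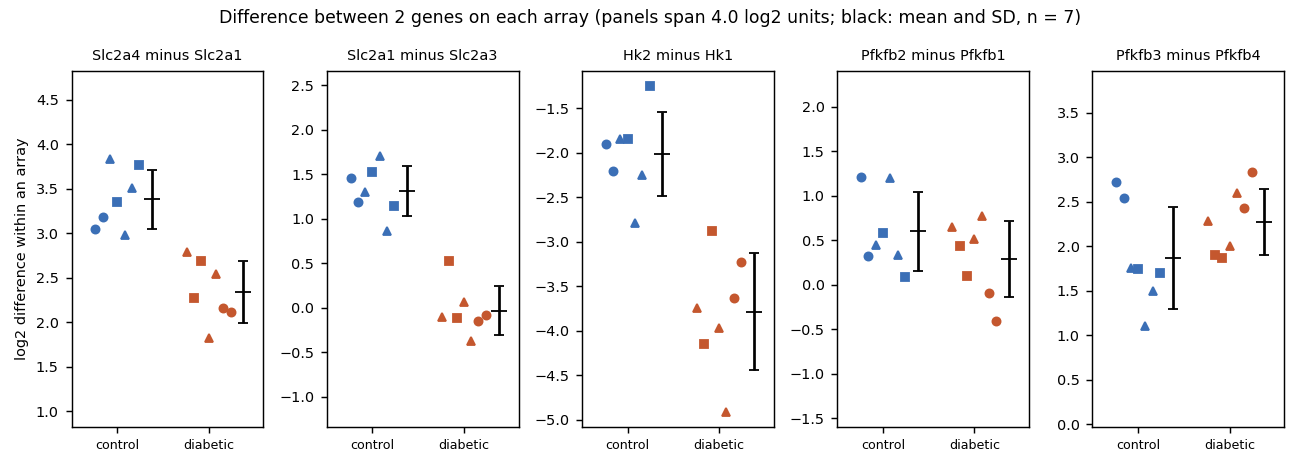
The y axis gives the log2 difference between the brightest probe sets of 2 genes on each array, for 7 control (blue) and 7 diabetic (orange) animals, with mean and SD in black and marker shape for array class. The first 3 pairs have no overlap between the groups, with shifts of -1.04, -1.34 and -1.77; the pairs of Pfkfb genes overlap.

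Among the Pfkfb genes, Pfkfb2 fell at 1 of its 4 probe sets. Probe set 1388044_at, its brightest, read 7.83, 8.11 and 8.20 in control and 6.95, 7.42 and 7.57 in diabetic. The groups did not overlap, and the controls were close together. Means of 8.07 ± 0.13 and 7.35 ± 0.22 (SD, n = 7 each) differed by 1.65-fold (1.39 to 1.97, limma adjusted p = 0.00374), and the log2 change was -0.42 with an offset of 200.

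The other 3 Pfkfb2 probe sets gave no call. The nearest was 1388063_a_at, with 6.22, 7.48 and 7.75 in control and 6.02, 6.82 and 7.25 in diabetic, a change of -0.59 (95% interval -1.12 to -0.05, limma adjusted p = 0.443). Probe set 1369400_a_at changed by 0.11 (-0.36 to 0.58, adjusted p = 0.938) and 1398320_at by -0.09 (-0.50 to 0.33, adjusted p = 0.946). Averaged over its 4 probe sets, Pfkfb2 changed by -0.32 and was no longer called (limma adjusted p = 0.208). The files do not say which transcripts each probe set reads.

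Pfkfb3, the inducible isoform with high kinase activity, moved the other way without passing the test. Probe set 1390391_at read 8.39, 8.72 and 8.82 in control and 8.74, 9.20 and 9.59 in diabetic. In 6 of 7 diabetic animals it lay above all controls, diabetic replicate 3 being the exception. The means were 8.66 ± 0.16 and 9.17 ± 0.27 (SD, n = 7 each), 1.42-fold higher (1.17 to 1.73, limma adjusted p = 0.0907, exact permutation p = 0.00233). The limma adjusted p was 0.0456 without diabetic replicate 3 and 0.0387 with an offset of 200, but 0.121 with an offset of 16, 0.177 with array weights and 0.314 without the 3 dimmest arrays.

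The other Pfkfb3 probe sets did not share that direction. Probe set 1369794_a_at gave 7.15 ± 0.55 in control and 6.98 ± 0.25 in diabetic, and 1397082_at gave 7.33 ± 0.66 and 7.19 ± 0.44 (SD, n = 7 each, limma adjusted p = 0.889 and 0.931). Averaged over its 3 probe sets, Pfkfb3 changed by 0.07 (limma adjusted p = 0.902).

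Pfkfb1, the isoform of liver and skeletal muscle, read 6.77, 7.63 and 7.86 in control and 6.47, 7.09 and 7.60 in diabetic at probe set 1369467_a_at. The ranges overlapped widely, with a change of -0.41 (95% interval -0.85 to 0.03, limma adjusted p = 0.569). Pfkfb4, first known from testis, read 5.99, 7.03 and 7.28 in control and 6.50, 6.99 and 7.20 in diabetic at 1389396_at. Its change was 0.10 (-0.34 to 0.55, limma adjusted p = 0.938), and the probe set 1368719_at lay close to the floor in both groups (medians 5.86 and 5.92, adjusted p = 0.797).

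Neither pair of Pfkfb genes passed the test of unequal change. Pfkfb2 minus Pfkfb1 went from 0.60 ± 0.44 to 0.29 ± 0.43 (SD, n = 7 each, exact permutation p = 0.202, adjusted over 5 pairs 0.202). Pfkfb3 minus Pfkfb4 went from 1.86 ± 0.57 to 2.27 ± 0.37 (SD, n = 7 each, exact permutation p = 0.137, adjusted 0.171). Without control replicate 1 this second shift was 0.55 with an adjusted exact permutation p of 0.0488.

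**Figure D3:**
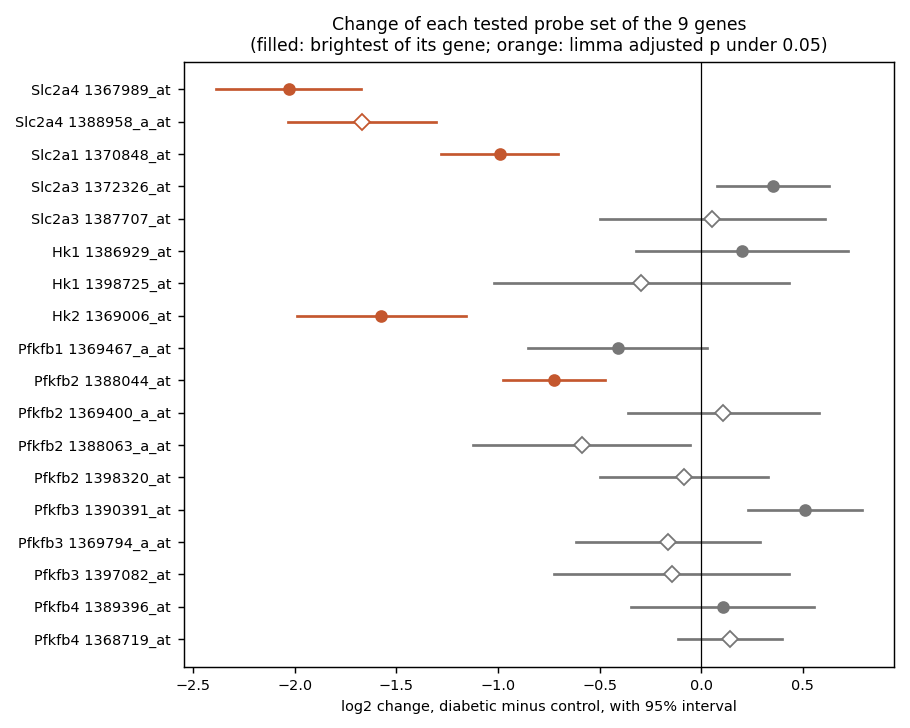
The x axis gives the log2 change, diabetic minus control, of each of the 18 tested probe sets with its 95% interval, filled for the brightest probe set of a gene and orange where the limma adjusted p is below 0.05. The 5 called probe sets run from -2.03 to -0.72, and the intervals of 1372326_at (Slc2a3), 1390391_at (Pfkfb3) and 1388063_a_at (Pfkfb2) exclude 0 without a call after adjustment.

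The arrays themselves were split into 3 classes by their control probe sets, and each class held both groups. Class C was cut off at the largest gap in the poly-A spike-in ratio. The remaining arrays were split into A and B at the largest gap in the beta-actin 3' over 5' ratio. That ratio was not used for class C, where diabetic replicate 5 had 1.47, inside the range of class A (1.41 to 1.71). Class A held 2 control and 2 diabetic arrays, class B 2 and 2, and class C 3 and 3. The labels name no batch, and what the classes stand for is not stated. Median deposited signal lay between 14.8 and 85.3 per array.

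The falls were present in each class. Slc2a4 changed by -1.97, -1.80 and -2.22 in classes A, B and C, and Hk2 by -1.27, -1.57 and -1.78. For Slc2a1 the values were -0.99, -0.73 and -1.17, and for Pfkfb2 -0.93, -0.60 and -0.67. Pfkfb3 differed more between classes, at 0.54, 0.18 and 0.72, and Slc2a3 at 1372326_at gave 0.45, 0.40 and 0.26. Uncalled probe sets could change sign between classes: 1398725_at of Hk1 ran from 0.77 in class A to -1.26 in class C, and that of Pfkfb1 from 0.088 in class A to -0.65 in class C.

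The unequal changes were likewise found in each class. Slc2a4 minus Slc2a1 shifted by -0.98, -1.08 and -1.05 in classes A, B and C, and Slc2a1 minus Slc2a3 by -1.44, -1.13 and -1.42. Hk2 minus Hk1 shifted by -1.38, -1.96 and -1.91. Pfkfb3 minus Pfkfb4, by contrast, shifted by -0.00, 0.17 and 0.84, so that its change lay mostly in class C. With class as a block, limma called the same number of member probe sets lower, 5 of 18, where 1.03% of all probe sets were called lower. It also called 1 higher, Pfkfb3 (adjusted p = 0.0497), where 1.05% of all were called higher.

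**Figure D4:**
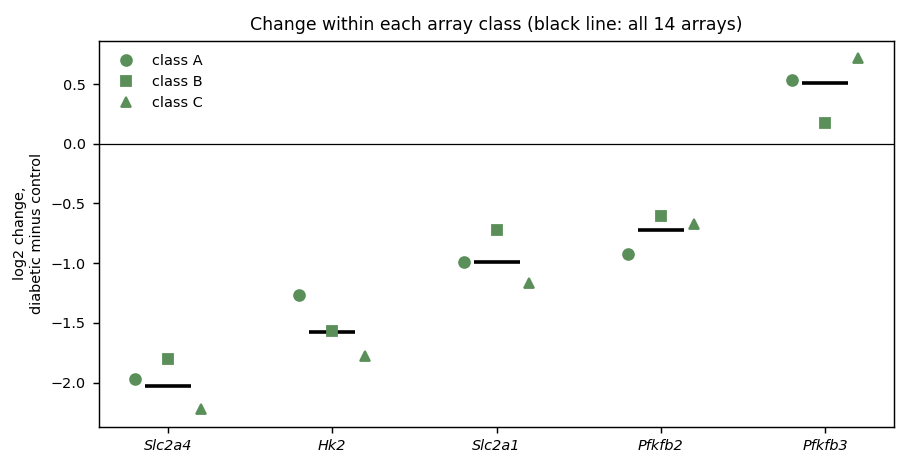
The y axis gives the log2 change, diabetic minus control, within array class A (circle, 2 against 2), B (square, 2 against 2) and C (triangle, 3 against 3), with the change over all 14 arrays as a black line. The 4 genes that fell lie below 0 in every class, and Pfkfb3 lies above 0 in every class, from 0.18 to 0.72.

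Other genes that handle glucose in the cell were described by lists, with each gene read at its brightest probe set. Over all 14217 named genes, 11.5% had an unadjusted limma p below 0.05, the background for the counts at that level. Of 8 other hexose transporters measured none passed the test, with 2 at an unadjusted limma p below 0.05 (median change 0.01). Slc2a5, the fructose transporter, had the smallest p, with 6.14 in control and 6.85 in diabetic (change 0.71 ± 0.17, SE, limma adjusted p = 0.0651), and the myo-inositol transporter Slc2a13 changed by 0.48 (adjusted p = 0.311). None of 5 other enzymes that phosphorylate or dephosphorylate glucose, with their partners, was called, with 1 at an unadjusted p below 0.05 (median -0.09) and values of 0.98 for the glucokinase regulator Gckr (adjusted p = 0.162) and -0.38 for Hkdc1, a further hexokinase (0.783).

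The machinery that moves GLUT4 vesicles was measured by 13 genes, and none was called (median 0.04). Its smallest p-values belonged to the membrane fusion protein Snap23 (change -0.23, limma adjusted p = 0.685) and the exocyst subunit Exoc7 (0.31, adjusted p = 0.617). At an unadjusted p below 0.05 there were 0 of these 13. Tbc1d4, the insulin-regulated brake on GLUT4 release, changed by 0.04 (adjusted p = 0.969).

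Transcription factors known to act on Slc2a4 or Hk2 gave no call among 12 measured, and 1 had an unadjusted limma p below 0.05 (median -0.03). Hif1a, the oxygen-regulated factor, changed by -0.35 (limma adjusted p = 0.217) and the lipogenic factor Srebf1 by -0.27 (adjusted p = 0.692). These are RNA levels, and activity of the factors was not measured.

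Downstream, none of 5 genes of the phosphofructokinase step was called, though 3 had an unadjusted limma p below 0.05 (median 0.42). The platelet-type isoform Pfkp changed by 0.42 (limma adjusted p = 0.213) and the muscle fructose bisphosphatase Fbp2 by 0.87 (adjusted p = 0.15). The third of these, the muscle isoform Pfkm, changed in the opposite direction, from 13.58 in control to 13.27 in diabetic (change -0.31, adjusted p = 0.300), and the log2 of the list's summed signal changed by -0.22, opposite in sign to the median. In lower glycolysis 1 of 12 genes fell, the muscle enolase Eno3, from 12.95 ± 0.35 to 11.89 ± 0.34 (SD, n = 7 each, limma adjusted p = 0.00579), with no overlap between groups. Ldha, a lactate dehydrogenase subunit, also had no overlap but a change of -0.33 that was not called (adjusted p = 0.105). Of these 12 genes, 3 had an unadjusted limma p below 0.05, and the median change of the 12 was -0.06. Over the 14217 named genes, 111 were called lower and 260 had no overlap between groups in either direction.

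Among 13 genes of other routes for glucose 6-phosphate none was called, and 4 had an unadjusted limma p below 0.05 (median -0.02). The glycogen synthase of muscle, Gys1, changed by -0.55 (limma adjusted p = 0.0947) and H6pd, a dehydrogenase of the endoplasmic reticulum, by 0.36 (adjusted p = 0.368).

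**Figure D5:**
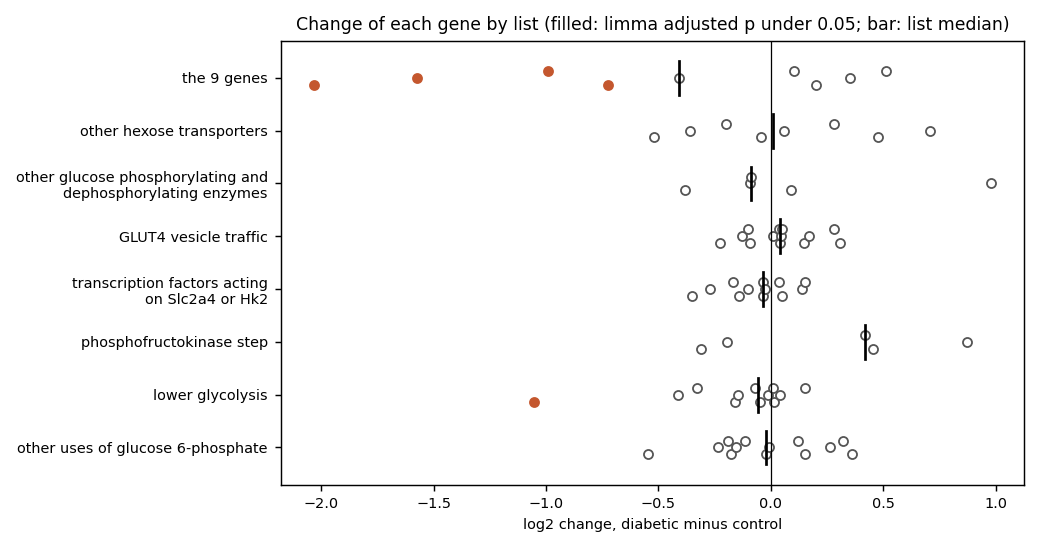
Each point is 1 gene by its brightest probe set, with its log2 change, diabetic minus control, on the x axis and its list on the y axis; filled points have a limma adjusted p below 0.05 and the bar is the list median. Filled points are Slc2a4, Hk2, Slc2a1 and Pfkfb2 among the 9 genes and Eno3 in lower glycolysis.

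The tissue was checked against markers of its cells. Of 7 cardiomyocyte markers none was called (list median -0.08). Only 1, the myosin heavy chain Myh6, had an unadjusted limma p below 0.05 (change -0.23, adjusted p = 0.363). Myh6 had every diabetic animal below every control, as had 0.564% of all probe sets. The log2 of the summed signal of the 7 ran from 17.64 to 17.71 in control and from 17.54 to 17.65 in diabetic animals. Sums for 4 atrial markers ran from 13.43 to 15.55 in control and from 14.50 to 15.57 in diabetic, with a median change of 1.03. None was called and 1 had an unadjusted limma p below 0.05, Nppa (change 0.56, adjusted p = 0.235). Nppa, at 13.32 to 14.48 in control and 14.25 to 14.90 in diabetic, made up most of the lowest sums. Myl7 spread more widely, from 8.49 to 14.18 in control and 8.79 to 13.83 in diabetic. So did Sln, from 7.07 to 11.74 and 8.16 to 12.22. For adipocytes, which also express Slc2a4, the sums of 4 markers were 6.45 to 8.22 and 7.44 to 8.13. Of these markers Lep (mean level 6.04 in control and 5.98 in diabetic) and Cidec (5.90 and 6.05) lay near the floor. For skeletal muscle the sums of 7 markers were 13.21 to 14.25 and 13.75 to 14.89. Nearly all of that signal was Myh1, at 13.15 to 14.25 in control and 13.73 to 14.87 in diabetic. The other markers were dim, with control means from 5.99 (Pvalb) to 7.03 (Myh2). None of the adipocyte or skeletal muscle markers was called. The part of such cells in the fall of Slc2a4 and Hk2 was not tested.

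Slc2a1 is also expressed by endothelial cells, and red blood cell markers were read beside theirs. Of 7 endothelial markers 0 were called by limma and 1 had an unadjusted p below 0.05, Vwf at a change of 0.57 (list median 0.08, summed level 13.49 to 13.76 in control and 13.48 to 13.89 in diabetic). Egfl7 had the next smallest p and the lowest change of the list, -0.34 (limma adjusted p = 0.611), while Vwf had the highest. Of 6 erythroid markers 1 was called, the anion exchanger Slc4a1, which fell by 1.22 on the log2 scale (limma adjusted p = 0.00174). The haem synthesis enzyme Alas2 changed by 0.56 (adjusted p = 0.60), Epb42 lay near the floor, and the erythroid sum was 10.82 to 12.96 in control and 10.78 to 13.04 in diabetic. Their part in the Slc2a1 result was not tested.

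White blood cells and platelets express Slc2a3 and Pfkfb3. Of 8 macrophage markers 0 were called by limma but 3 had an unadjusted p below 0.05 (median 0.29). Mrc1 changed by 0.71 (adjusted p = 0.0722) and Cd163 by 0.71 (adjusted p = 0.231), with sums of 12.08 to 12.76 in control and 12.42 to 13.14 in diabetic. Of 6 neutrophil and platelet markers 0 were called but 3 had an unadjusted p below 0.05 (median 0.44). S100a9 changed by 1.40 (adjusted p = 0.0704) and Pf4 by 0.57 (adjusted p = 0.136), with sums of 9.95 to 10.76 and 10.68 to 11.56. Medians over 7 fibroblast, 3 nerve and 4 adipocyte markers were -0.01, 0.28 and 0.10, with none called. The part of these cells in the values of Slc2a3 and Pfkfb3 was not tested.

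Over the 14 arrays the named genes most like Slc2a4, by Pearson r among 14208 genes outside the list, were Fndc5 (r = 0.976), the precursor of irisin, Bcat2 (0.975), the mitochondrial branched-chain aminotransferase, and Card9 (0.971), an adaptor of innate immunity. All 3 were called lower, with changes of -1.21, -1.21 and -3.45 on the log2 scale. For Hk2 they were Slc4a1 (r = 0.963), Sh3bgr (0.962) and Coq10a (0.957), of which Slc4a1 and Coq10a were called and Sh3bgr was not (change -0.34, limma adjusted p = 0.108). The 14 points share the arrays and the difference between the groups.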

How the data were processed

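Left ventricle RNA of 7 control and 7 diabetic rats was measured, and groups came from the sample titles. The table deposited by the authors gives 1 linear intensity per probe set and array. Per the submitters' processing notes the tools were MAS5, RMA, affy and limma, with no role or version stated. Here the deposited intensity was multiplied to bring each array's trimmed mean (2% off either end) to 500, an offset of 50 was added before log2, and arrays were then quantile normalised. Symbols came from the array's annotation: 20826 tested probe sets had 1 symbol, 436 several and 9780 none. For each gene, the brightest probe set by mean over all arrays was used. limma 3.58.1 (R 4.3.3, lmFit and eBayes, two-sided) fitted group alone, p-values were adjusted by Benjamini-Hochberg over 31042 probe sets, and the 57 control probe sets were kept out. Steps were tested on simulated data. The members and lists were chosen with earlier results of these data known. Named were all members, each list's called genes or else up to 2 with the smallest p, and the 3 genes most like Slc2a4 and Hk2. Tbc1d4, Ldha, Pfkm, Alas2, Epb42, Myl7, Myh2, Pvalb and Lep are named outside this rule, after their values were seen. For adipocytes the marker with the smallest p was left out, and no fibroblast or nerve marker was named. Other offsets, scalings, variance models, filters and left-out arrays were tried; class as a block combined with a trended robust prior was added after seeing the data.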

Additional observations from a re-analysis of the deposited data

Results flagged for a closer look

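Control replicate 6 read 8.58 for Slc2a3 at probe set 1372326_at, with the next control at 7.93, a gap of 0.842 of the whole range of the 7 controls and above Dixon's critical value. Of 42 groups of 7 examined over the 21 probe sets, 1 held such a value, and chance alone marks about 1 in 20.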

How the results depend on the processing

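Detection calls were not used, so dim probe sets may hold background, and their changes shrink with a larger offset. The 5 calls of a lower probe set, in 4 genes, held with each array left out, other offsets and scalings, array weights, a trended robust prior and without the 3 dimmest arrays; averaging probe sets left 3 genes lower. Within array class A, B or C, limma called 0 member probe sets and 0 member genes lower, and it called 0 probe sets on the whole array there. The count of higher members, 0 before, became 1 (Pfkfb3) with an offset of 200, class as a block, that block with a trended robust prior, and among probe sets above the median signal; with an array left out it was 0 to 1, for probe sets and for genes. Pfkfb3 minus Pfkfb4 was 0.36 with an offset of 200 and 0.38 without scaling, both past the threshold, and 0.28 to 0.55 with an array left out. Pfkfb2 minus Pfkfb1 was -1.01 within class A. Outside the refits within a class, uncalled probe sets that turned sign were 1398320_at of Pfkfb2 (0.110 with array weights, -0.20 to 0.023 with an array left out), 1398725_at of Hk1 (0.034 without the 3 dimmest arrays), 1369400_a_at of Pfkfb2 (-0.022 to 0.23), 1387707_at of Slc2a3 (-0.062 to 0.24), 1389396_at of Pfkfb4 (-0.029 to 0.18) and 1397082_at of Pfkfb3 (-0.29 to 0.039), the last 4 with an array left out. Within a class, Pfkfb1 turned to 0.088 (A) and 1369794_a_at of Pfkfb3 to 0.13 (C), among others. The causes were not tested.

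Replicate numbers are shared by the groups, and the labels do not say that they pair animals. Same-numbered arrays did not deviate together (r from -0.161 to 0.0865, 0 of 7 pairs above 0.1). Animals could be paired without such a correlation, so this does not settle whether they were. With the replicate block limma called 70 probe sets lower and 73 higher on the array, against 162 and 192, and still 5 and 0 of the members; the adjusted p of Pfkfb3 was then 0.344.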

Other observations

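Among the 7 controls, replicates 1 and 2, the controls of array class A, had the lowest levels of Slc2a4 (12.34 and 12.26), Hk2 (8.86 and 8.46) and Pfkfb4 (5.99 and 6.08). The next lowest control lay at 12.62 for Slc2a4 and at 6.78 for Pfkfb4, while for Hk2 it lay close to replicate 1.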
